A study of Sus scrofa with 24 samples.

Results

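ATP6V1F and 7 further genes encode subunits of V1, the part of the vacuolar proton pump that faces the cytosol. They were taken by gene symbol from the deposited expression table of pig muscle: ATP6V1F, ATP6V1A, ATP6V1B2, ATP6V1C1, ATP6V1D, ATP6V1E1, ATP6V1G1 and ATP6V1H. All 8 symbols are in the table, with 11 of its 22154 transcripts; they make up 8 of the 12017 genes formed by summing transcripts. ATP6V1F was chosen by its FPKM in high against low IMF animals, so that difference is described and not tested, while the others were added as parts of the same complex.

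The samples were longissimus dorsi, the long back muscle, of 24 pigs: 12 of high intramuscular fat (IMF) content and 12 of low IMF content. Intramuscular fat is the fat held between and within the muscle fibres, the marbling of meat. Every animal was a Duroc x Luchuan cross, drawn from 265 F1 pigs of 8 boars and 112 sows, kept on the same farm and diet and slaughtered at 210 ± 6 days. The labels class each animal only as high or low, and give no fat percentage or sex; muscle was sampled 25 minutes after death, and each library is 1 animal.

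The vacuolar proton pump, or V-ATPase, moves protons into lysosomes, endosomes and secretory vesicles at the cost of ATP. V1 hydrolyses ATP: subunits A and B form the ring that binds the nucleotide, D and F form the central shaft that turns inside it, and E and G form the outer stalks that hold the ring still. C joins the stalks to the membrane sector V0, which carries the protons, and H regulates the pump and keeps V1 silent when it is detached from V0. In muscle the pump is known for keeping lysosomes acidic, for the clearing of worn cell parts, and for the sensing of amino acids by the growth regulator mTORC1 at the lysosome.

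Values are FPKM, fragments scaled to transcript length and to all mapped fragments, so levels are given per length. The tissue label was borne out by fibre genes: alpha-actin ACTA1 averaged 21138 ± 7005 FPKM in high and 27725 ± 7213 FPKM in low IMF (SD, n = 12 each), and desmin DES 2634 ± 494 and 2713 ± 494 FPKM. Myoglobin, MB, went against this at 0.408 ± 0.317 FPKM in high and 0.628 ± 0.693 FPKM in low IMF in its listed transcripts. Titin, TTN, was also low for a fibre gene, at 3.14 ± 2.55 FPKM in high and 6.76 ± 4.84 FPKM in low IMF. The estimated depth was 32.9 to 40.8 M reads per library. In low IMF animal 10 the 10 most abundant genes took 18.5% of all FPKM, and in high IMF animal 7 they took 20.2%, against a median of 28.4% over the 24 libraries. The number of an animal follows the order of deposition inside its group and carries no other meaning.

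All 8 subunits were transcribed in back muscle, at levels that spread over a wide range. ATP6V1F, the shaft subunit F, stood first of the 8 in 24 of 24 animals, at 43.4 ± 11.5 FPKM (SD, n = 24), and ATP6V1G1, the widely used form of stalk subunit G, stood second in 24 of 24, at 23.0 ± 2.94 FPKM. ATP6V1H followed at 12.3 ± 2.69 FPKM and ATP6V1C1 at 10.5 ± 3.46 FPKM. Their ranges of mean ± SD overlap, and ATP6V1H was the higher of the pair in 16 of 24 animals. ATP6V1E1 had 7.58 ± 1.38 FPKM and lay below ATP6V1C1 in 20 animals, again with overlapping ranges. ATP6V1B2 had 4.70 ± 0.787 FPKM, below ATP6V1E1 and above ATP6V1D in every animal. ATP6V1D, the other shaft subunit, had 2.80 ± 0.673 FPKM. ATP6V1A, the catalytic subunit, was the lowest at 2.21 ± 0.839 FPKM, with ATP6V1D above it in 19 of 24 animals and overlapping ranges. In FPKM the shaft pair F and D thus held places 1 and 7 of the order, and the stalk pair G1 and E1 places 2 and 5. This order rests on listed lengths of 706 bases for F, 4311 for D, 7883 for E1 and 2785 for the main G1 transcript. The listed ATP6V1D transcript runs 2.7 kb past its RefSeq span. In estimated reads per library, not divided by length, G1 averaged 2260, E1 2189, F 1119 and D 441.

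ATP6V1F lies on the minus strand of chromosome 18 at chr18:19753759-19756658 (Sscrofa11.1), and the 1 listed transcript is a reference transcript of 2 exons and 706 bases whose ends lie within 2 and 48 bases of the RefSeq gene. Its level ran from 40.1 through a median of 54.3 to 68.2 FPKM in high IMF animals, against 26.2, 36.0 and 40.2 FPKM in low IMF animals. The groups nearly separate: 11 of 12 high IMF animals lay above every low IMF animal, and the exception, high IMF animal 12, lay just under low IMF animal 3. Such a separation, 11 or more of 12, was met by 0.0255% of the 11757 genes whose mean reached 0.5 FPKM, and since this contrast chose the gene nothing is read from it. The mean was 52.5 ± 8.70 FPKM in high and 34.3 ± 4.52 FPKM in low IMF (SD, n = 12 each), a ratio of 1.53. On the log2(FPKM + 1) scale the difference, high minus low, was 0.60 (SE 0.0944), where the median of all 11757 genes was 0.077. With trimmed mean of M values (TMM) scaling, which moves that median to -0.00086, the difference was 0.48.

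The depth behind this gene was large next to its spread. An estimated 682 to 1751 reads per library lay on ATP6V1F, a counting error of 2.39% to 3.83%, while the coefficient of variation among animals was 16.6% in high and 13.2% in low IMF. Among all 12017 genes ATP6V1F ranked between place 570 and place 806 in high IMF animals, and between place 790 and place 1264 in low IMF animals. The rank within a library, which does not depend on how libraries are scaled to each other, thus overlapped only at 790 to 806. These ranks restate the contrast that chose the gene. The share of all genes with such ranks was not computed, and nothing is read from them.

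**Figure D1:**
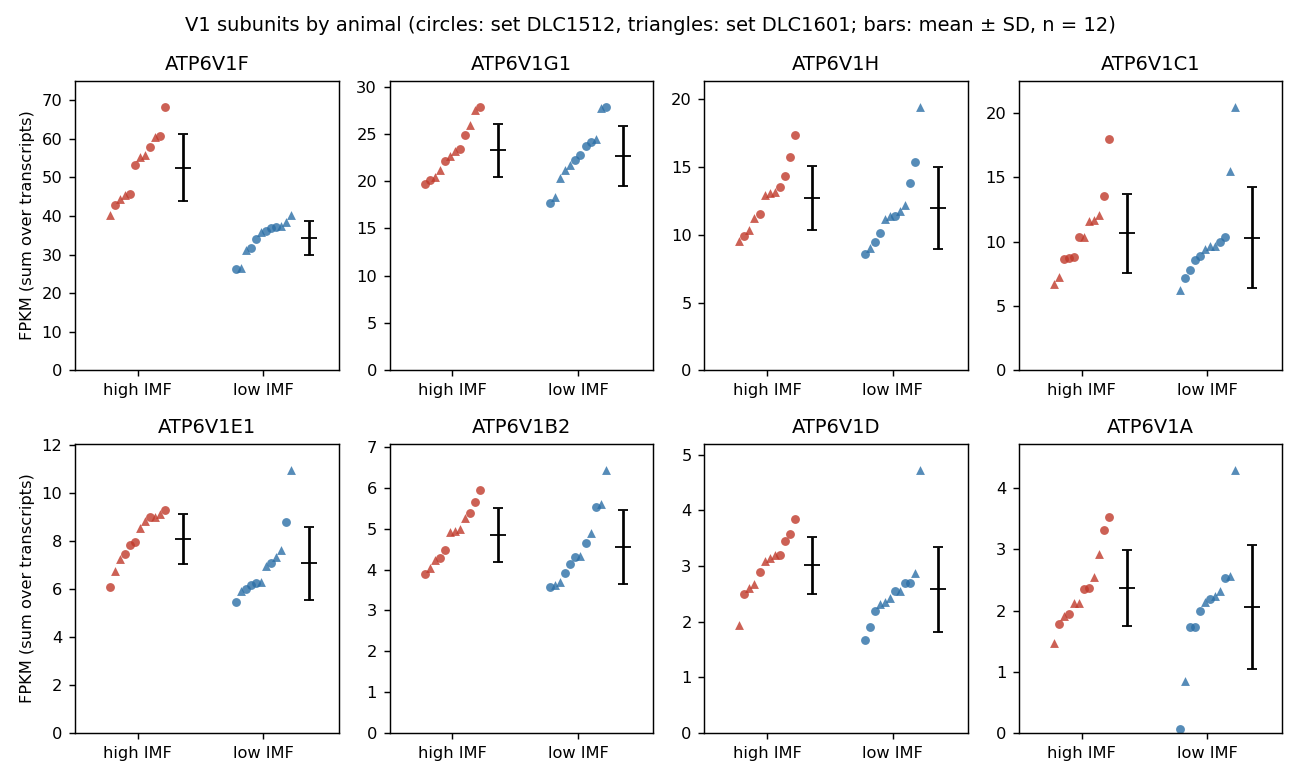
FPKM of the 8 V1 subunit genes in each animal (y axis, from 0, own scale per gene), high IMF in red on the left and low IMF in blue on the right, with circles for code set DLC1512, triangles for set DLC1601 and bars for mean ± SD (n = 12). In ATP6V1F 11 of 12 high IMF animals lie above every low IMF animal, and in the other 7 genes the groups overlap throughout.

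The labels name each animal by a code that starts with DLC1601 or DLC1512, and both starts are shared by 6 high and 6 low IMF animals. The sources do not say what the code stands for. In set DLC1601 ATP6V1F had 50.2 ± 8.01 FPKM in high and 34.9 ± 5.14 FPKM in low IMF, with 5 of 6 high IMF animals above every low IMF animal of the set. In set DLC1512 it had 54.8 ± 9.49 FPKM in high and 33.7 ± 4.19 FPKM in low IMF (SD, n = 6 each), and all 6 high IMF animals exceeded the highest low IMF one. Both counts carry the contrast that chose the gene. The share of all genes that separate so within a set was not computed, and nothing is read from the counts. The log2 difference was 0.51 in set DLC1601 and 0.68 in set DLC1512. The difference between them, a question the choice of the gene did not use, was -0.17 (limma interaction, SE 0.193, adjusted p = 0.998). In 3 pairs the animals share the first 9 digits of the code, and within them ATP6V1F had 45.7 and 53.3 FPKM in high IMF animals 4 and 8, 36.9 and 31.7 FPKM in low IMF animals 6 and 7, and 37.0 and 36.2 FPKM in low IMF animals 2 and 8.

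None of the 7 other V1 subunits passed the test between high and low IMF. The limma fit on log2(FPKM + 1) over all 11757 genes, with Benjamini-Hochberg adjustment at 0.05, called 0 of 7, where it called 0.051% of all genes in either direction, 0.0425% as higher and 0.00851% as lower in high IMF. At an unadjusted p under 0.05 it also had 0 of 7, beside 7.68% of all genes (0 of 7 and 5.16% with TMM scaling). The log2 fold change was positive in all 7, as in 73.4% of all genes, and its median was 0.096. With TMM scaling it was positive in 3 of 7, beside 49.8% of all genes, and its median was -0.0078. The upper ends of the 7 95% intervals were 0.21 to 0.57 and the lower ends -0.26 to -0.012.

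In the ring, ATP6V1A ran from 1.48 through 2.25 to 3.53 FPKM in high IMF animals and from 0.0573 through 2.17 to 4.30 FPKM in low IMF animals. The medians are close, and 6 of 12 high IMF animals exceeded the low IMF median. The limma log2 fold change was 0.21 (SE 0.174, adjusted p = 0.790). It was 0.078 without low IMF animal 8, the lowest, 0.055 with 1 animal per shared 9 digits and 0.44 with a pseudocount of 0.1 FPKM. ATP6V1B2, the widely used form of subunit B, ran from 3.90 through 4.94 to 5.96 FPKM in high IMF animals and from 3.56 through 4.33 to 6.44 FPKM in low IMF animals. Its range in high IMF lay inside that in low IMF (limma log2 fold change 0.078, SE 0.0901, adjusted p = 0.850).

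In the shaft, ATP6V1D, the partner of ATP6V1F, ran from 1.94 through 3.11 to 3.84 FPKM in high IMF animals and from 1.66 through 2.48 to 4.73 FPKM in low IMF animals. Here 11 of 12 high IMF animals exceeded the low IMF median, yet low IMF animal 10 was the highest of all 24 (limma log2 fold change 0.18, SE 0.102, adjusted p = 0.695). Without that animal the value was 0.24 (limma adjusted p = 0.199). For this gene and those below, the share of all genes with such a count above the low IMF median was not computed. Nothing is read from these counts.

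In the stalks, ATP6V1E1, the widely used form of subunit E, ran from 6.06 through 8.25 to 9.29 FPKM in high IMF animals and from 5.45 through 6.62 to 10.96 FPKM in low IMF animals. The low IMF median was again exceeded by 11 of 12 high IMF animals, and low IMF animal 10 was highest (limma log2 fold change 0.18, SE 0.0955, adjusted p = 0.665; 0.24 and adjusted p = 0.197 without that animal). Its stalk partner ATP6V1G1 ran from 19.7 through 22.9 to 27.8 FPKM in high IMF animals and from 17.7 through 22.5 to 27.8 FPKM in low IMF animals. It had the smallest log2 fold change of the 8, 0.039 (limma SE 0.0837, adjusted p = 0.933).

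Of the subunits that join or regulate the pump, ATP6V1C1 ran from 6.70 through 10.4 to 18.0 FPKM in high IMF animals and from 6.21 through 9.54 to 20.5 FPKM in low IMF animals (limma log2 fold change 0.065, SE 0.158, adjusted p = 0.942). ATP6V1H ran from 9.57 through 13.0 to 17.4 FPKM in high IMF animals and from 8.57 through 11.4 to 19.4 FPKM in low IMF animals (limma log2 fold change 0.096, SE 0.117, adjusted p = 0.857). In both genes the groups overlap over most of their range.

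Low IMF animal 10, the library whose most abundant genes took the smallest share, was the highest of all 24 animals in 6 of these 7 genes, all but ATP6V1G1. In ATP6V1F it had 38.5 FPKM, with 1 low IMF animal above it, and stayed below all 12 high IMF animals. Without it, ATP6V1D and ATP6V1E1 had an unadjusted limma p under 0.05, beside 15.0% of all genes, and 0 of 7 passed the adjusted threshold. Without it and high IMF animal 7 the count was likewise 0 of 7, and ATP6V1F differed by 0.60.

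Set against its own complex, ATP6V1F also stood higher in high IMF animals, with a ratio of means of 1.41. Its FPKM divided by the mean FPKM of the other 7 subunits ran from 4.73 through 5.49 to 7.22 in high IMF animals and from 2.82 through 4.19 to 5.44 in low IMF animals. The low IMF median was exceeded by all 12 high IMF animals, and every low IMF animal by 7 of them. The mean ratio was 5.65 ± 0.80 in high and 4.01 ± 0.76 in low IMF (SD, n = 12 each). Divided by ATP6V1G1 alone it averaged 2.30 ± 0.561 in high and 1.54 ± 0.306 in low IMF, and divided by ATP6V0B, a proton-carrying subunit of V0, 3.50 ± 0.527 and 2.54 ± 0.552. These quotients carry the difference that chose the gene and are given with no test.

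**Figure D2:**
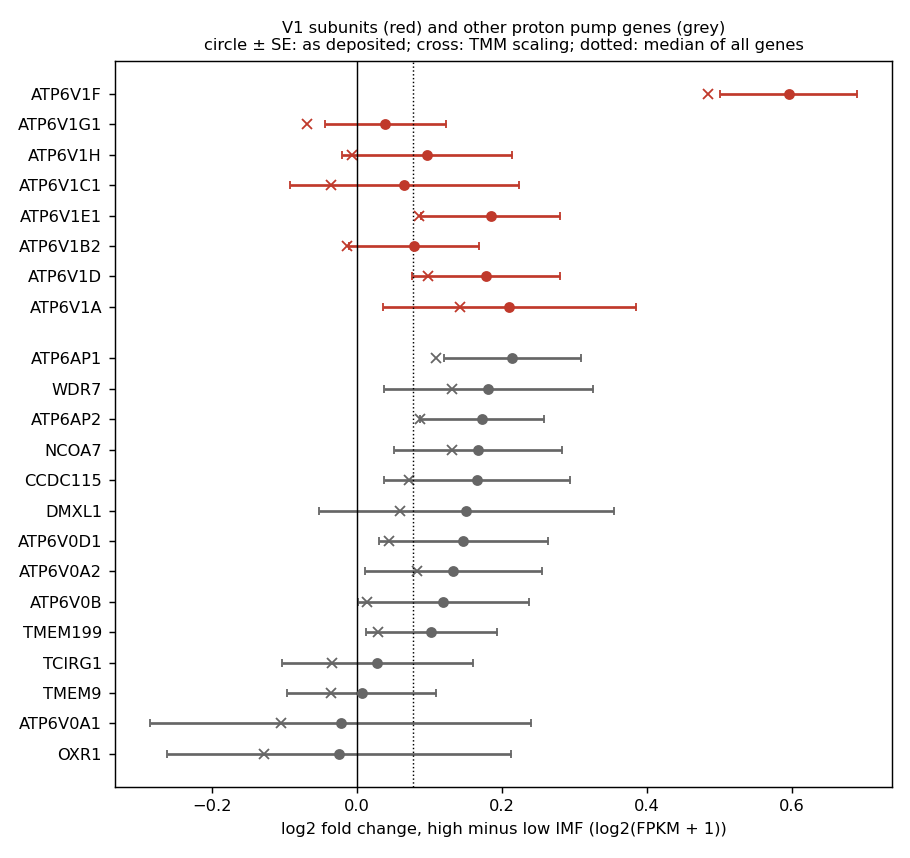
Limma log2 fold change, high minus low IMF, on the log2(FPKM + 1) scale (x axis) of the 8 V1 subunits in red and of 14 other proton pump genes in grey; circles with bars are estimate ± SE from FPKM as deposited, crosses the estimate with TMM scaling, and the dotted line the median of all genes. ATP6V1F stands at 0.60, and the other 21 lie between -0.025 and 0.21.

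No measured gene of the membrane sector or of the helpers of the pump passed the test. Of a list of 29 other pump genes 14 are in the table, with 12 positive log2 fold changes (73.4% of all genes), a median of 0.14 (0.051 with TMM scaling) and 0 called by limma (0.051% of all genes). At an unadjusted p under 0.05 the list had 1, beside 7.68% of all genes: ATP6AP1, the accessory subunit that guides pump assembly. The count was 0 with TMM scaling, and 3 without low IMF animal 10, where the share of all genes was 15.0%. ATP6AP1 ran from 13.0 through 16.2 to 18.7 FPKM in high IMF animals and from 10.3 through 13.2 to 20.3 FPKM in low IMF animals (limma log2 fold change 0.21, SE 0.0941, adjusted p = 0.617). ATP6AP2, the accessory subunit also known as the prorenin receptor, was 3.96 ± 0.362 FPKM in high and 3.44 ± 0.771 FPKM in low IMF (limma adjusted p = 0.651). In ATP6AP2 all 12 high IMF animals exceeded the low IMF median, as they did in RRAGA and SCARB2 of the lysosome list below. The share of all genes with such a count was not computed, and nothing is read from it. NCOA7, whose protein binds V1, CCDC115, a pump assembly factor, and WDR7, a partner of the complex that rejoins V1 to V0, were next by p, with log2 fold changes of 0.17, 0.17 and 0.18 (limma adjusted p = 0.738, 0.767 and 0.778). ATP6V0D1, which seats the V1 shaft on V0, was 11.4 ± 2.37 FPKM in high and 10.2 ± 2.54 FPKM in low IMF (limma adjusted p = 0.778). The tissue-restricted V1 forms ATP6V1B1, ATP6V1C2, ATP6V1E2, ATP6V1G2 and ATP6V1G3 were not matched in the table and are not analysed here. The same holds for the V0 genes ATP6V0A4, ATP6V0C, ATP6V0D2, ATP6V0E1 and ATP6V0E2, so V0 was covered in part only. It also holds for ATP6AP1L, VMA21, DMXL2, ROGDI and RNASEK.

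Genes of the lysosome and of mTORC1, where the pump acts, gave a like picture. Of 49 listed genes 40 were tested, and 34 were positive, beside 73.4% of all genes, with a median of 0.14. With TMM scaling 25 were positive, beside 49.8% of all genes, with a median of 0.037. Limma called 0, beside 0.051% of all genes. At an unadjusted p under 0.05 there were 4 higher and 1 lower (1 and 1 with TMM scaling), beside 6.79% and 0.893% of all genes. This count of 5 was 14 without low IMF animal 10, where the share of all genes was 15.0%, and 2 without low IMF animal 9, where it was 6.45%. It was 3 without any one of high IMF animals 3, 7 and 11 and low IMF animals 2 and 12. In those runs the share of all genes was 6.25% to 7.02%. Within set DLC1512 the count was 11, beside 8.76% of all genes, and within set DLC1601 it was 0, beside 3.41%. Both fits within a set were added after the data were seen. CD63, a lysosome membrane protein, was 193 ± 41.9 FPKM in high and 152 ± 35.1 FPKM in low IMF (limma log2 fold change 0.35, adjusted p = 0.521). CTSA, the protective protein cathepsin A, was 23.7 ± 4.70 FPKM in high and 18.9 ± 6.32 FPKM in low IMF (0.34, limma adjusted p = 0.544). LAMTOR4, a part of the scaffold that ties mTORC1 signalling to the lysosome, was 55.2 ± 9.61 and 46.7 ± 7.30 FPKM (0.24, limma adjusted p = 0.586). The protease CTSD was 46.2 ± 11.6 FPKM in high and 37.1 ± 10.4 FPKM in low IMF (0.31, limma adjusted p = 0.647).

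A contrast that the choice of members did not use, code set DLC1601 minus set DLC1512 with IMF as a term, called 0 of the 8 subunits and 0% of all genes by limma, while 6.48% of all genes and 0 of the 8 had an unadjusted p under 0.05. ATP6V1F had 42.6 ± 10.3 FPKM in set DLC1601 and 44.2 ± 13.1 FPKM in set DLC1512 (SD, n = 12 each), a log2 difference of -0.036 (limma SE 0.0959, adjusted p = 0.954). The other 7 differed by -0.048 to 0.10. The IMF difference itself also did not differ between the sets past the threshold for any of the 8, with 0 of 8 at an unadjusted limma p under 0.05 and 3.29% of all genes. Of the 7, ATP6V1A, ATP6V1C1, ATP6V1D and ATP6V1H had a negative log2 fold change in set DLC1601 and a positive one in set DLC1512.

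Some subunits are listed with more than 1 transcript. ATP6V1C1, on chromosome 4, has a reference transcript whose ends lie within 157 bases of its RefSeq span and a second one that runs 137.2 kb past it, to base 34222147, inside the RefSeq span of AZIN1. The second was listed at 0 in 5 of 12 high IMF animals and in 0 of 12 low IMF animals, and made up 12.7 ± 15.2% of the gene's FPKM in high and 19.4 ± 11.04% in low IMF (SD, n = 12 each). With transcripts as units, where limma called 0.0187% of 21405, its log2 fold change was -0.49 (SE 0.342, adjusted p = 0.859), and that of the first was 0.16 (SE 0.140, adjusted p = 0.896). The minor transcript of ATP6V1H was 10.7 ± 6.11% of the gene in high and 9.12 ± 5.82% in low IMF, and that of ATP6V1G1 6.99 ± 2.86% and 6.66 ± 3.06%. ATP6V1E1, on the minus strand, is listed with 1 assembled isoform of 7883 bases that runs 6.5 kb past the 3′ end of its RefSeq span, so its level per length rests on that assembly. Of the 10 transcripts of the other 7 subunits, 0 had a p-value under 0.05 in the authors' deposited table, and the smallest was 0.111.

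None of the neighbours of ATP6V1F tested here passed the threshold. The table lists 13 other genes within 500 kb, and 12 of them, all but LEP, had limma log2 fold changes of -0.033 to 0.28 with a median of 0.061. Of the 12, 9 were positive, beside 73.4% of all genes, and with TMM scaling 6, beside 49.8%. Limma called 0, beside 0.051% of all genes, and 0 had an unadjusted p under 0.05, beside 7.68%. The adjacent gene FLNC, which encodes the muscle crosslinker filamin C, lies upstream on the same strand, with 644 bases between its listed end and the start of ATP6V1F. That listed end, at base 19757303, runs past the RefSeq span of FLNC, which ends at base 19759734, so the RefSeq gap is wider. FLNC was 342 ± 215 FPKM in high and 310 ± 116 FPKM in low IMF (limma log2 fold change 0.033, SE 0.260, adjusted p = 0.985; -0.08 with TMM scaling). On the other side AC025594.2, on the opposite strand, was 0.869 ± 0.488 FPKM in high and 0.872 ± 0.297 FPKM in low IMF (limma adjusted p = 0.977). TNPO3, a nuclear import receptor, was 8.46 ± 1.85 and 7.06 ± 2.32 FPKM (limma log2 fold change 0.26, adjusted p = 0.679). HILPDA, a lipid droplet protein 188 kb away, was 3.22 ± 0.937 FPKM in high and 2.54 ± 0.802 FPKM in low IMF (limma log2 fold change 0.25, adjusted p = 0.659). AHCYL2 had 0.28, RBM28 0.19, STRIP2 0.11, IMPDH1 0.081, TSPAN33 0.041, CALU 0.0024, SMO -0.033 and the unnamed locus MSTRG.6762 -0.025 (limma adjusted p = 0.773 to 0.999). LEP, the leptin gene 350 kb away and also known beforehand to differ, was 0.888 ± 0.469 FPKM in high and 0.175 ± 0.0828 FPKM in low IMF, a ratio of 5.08 against the 1.53 of ATP6V1F. Its log2 difference of 0.65 is compressed by the added 1 FPKM.

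**Figure D3:**
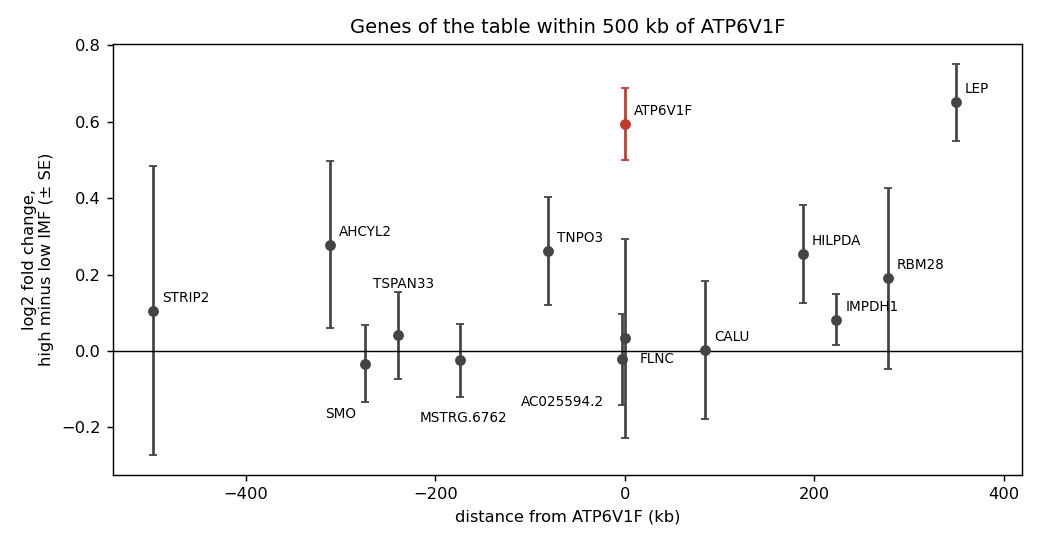
Limma log2 fold change, high minus low IMF, ± SE (y axis) against distance in kb from ATP6V1F (x axis) for the 14 listed genes of the window, with ATP6V1F in red. ATP6V1F at 0.60 and LEP at 0.65 stand above the 12 others, which lie between -0.033 and 0.28; for LEP, below 1 FPKM on average, the added 1 FPKM compresses a ratio of 5.08.

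Within the IMF groups ATP6V1F followed the other subunits only loosely. Deviations from the group means over the 24 animals gave Pearson r of -0.14 to 0.48 with the 7, with a median of 0.19, where the median over all 11756 other genes was 0.055 and the 95th percentile 0.459. The closest were ATP6V1D, its shaft partner (r = 0.48, Spearman rho = 0.49), and ATP6V1H (r = 0.46, rho = 0.49). Within high IMF animals r was 0.68 with ATP6V1D, 0.70 with ATP6V1H and 0.63 with ATP6V1E1. Within low IMF animals these were 0.34, 0.25 and 0.18. With ATP6V1A, ATP6V1B2, ATP6V1C1 and ATP6V1G1 it was -0.020, 0.28, 0.28 and -0.37 within high IMF. Within low IMF these were -0.13, 0.053, 0.11 and 0.086. The 21 pairs among the 7 others had r of -0.18 to 0.88 with a median of 0.43, highest for ATP6V1D with ATP6V1H and lowest for ATP6V1C1 with ATP6V1G1. Library composition enters these values: with TMM scaling the median of the 21 pairs was 0.070 and that of the 7 pairs with ATP6V1F 0.057, and without low IMF animal 10 they were 0.23 and 0.11. The pair ATP6V1D and ATP6V1H kept r = 0.81 with TMM scaling and 0.82 without that animal. These are descriptions over shared libraries, with no test.

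**Figure D4:**
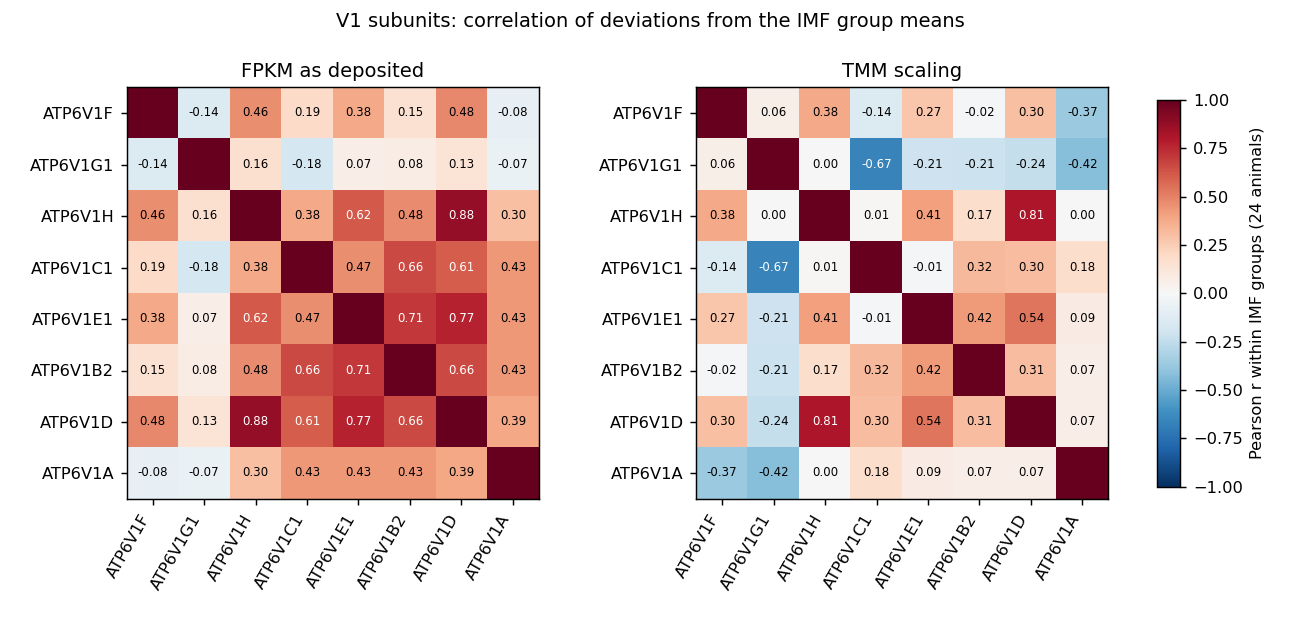
Pearson r between the V1 subunits (both axes) of deviations from the IMF group means over 24 animals, from FPKM as deposited on the left and with TMM scaling on the right. ATP6V1D with ATP6V1H is the highest pair on both sides, 0.88 and 0.81, and the pairs with ATP6V1F reach at most 0.48 and 0.38.

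Genes with a symbol and a mean of at least 1 FPKM were ordered by how much their level was like that of ATP6V1F in this sense. The first 6 were NAA20 (r = 0.85, rho = 0.85), TRMT61A (0.75, 0.75), EXOSC8 (0.72, 0.73), GINS2 (0.71, 0.62), JMJD6 (0.71, 0.71) and DGKD (0.70, 0.65), all over 24 animals. NAA20 was 48.7 ± 20.1 FPKM in high and 36.5 ± 11.2 FPKM in low IMF, and its r was 0.91 within high and 0.74 within low IMF. With TMM scaling the first 6 of such genes were RRAD, CMC2, MED4, TRAF2, NOB1 and TBC1D10B, with r of 0.72 to 0.73. The 6 named by each scaling shared 0 genes, and NAA20 had 0.71 with TMM scaling. No proton pump gene was among either 6, and nothing is read from this because 6 places are few beside 11756 genes. By r as deposited the pump genes ran from percentile 4.18 for DMXL1 to 95.2 for ATP6V1H, 95.8 for ATP6V0B and 96.1 for ATP6V1D. The nearest neighbour FLNC had r = 0.53 (rho = 0.57), the 97.9th percentile of all genes, 0.66 within high and 0.32 within low IMF, 0.50 with TMM scaling and 0.45 without the 2 animals farthest in FLNC. FLNC was the highest of the listed genes within 500 kb. The others ran from -0.42 for LEP (percentile 1.91) to 0.32 for TSPAN33 (percentile 84.1). With TMM scaling they ran from -0.52 for LEP to 0.30 for HILPDA.

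The 11 adipocyte markers, all measured, include LEP, which was known beforehand to differ and is left out of the counts. Of the 10 others 9 had a log2 fold change above 0, beside 73.4% of all genes, with a median of 0.88. Limma called 1 of them, TUSC5, beside 0.051% of all genes, and PLIN1 had -0.088. The marker lists were chosen with earlier results of these data known, so these counts are descriptions and nothing is read from them. The summed level of all 11 was 80.3 to 253 FPKM in high and 37.2 to 187 FPKM in low IMF; PPARG and ADIG were listed at 0 in at least 1 low IMF animal. In bulk muscle a higher number of cells of a type and more RNA per cell cannot be told apart. Within high IMF animals no relation of ATP6V1F to the mean z score of these markers passed the test (Pearson r = -0.16, permutation p = 0.609, Spearman rho = -0.077, permutation p = 0.810, n = 12; r = -0.12 without the 2 farthest animals). Within low IMF animals the values were r = -0.049 (permutation p = 0.810) and rho = -0.10 (permutation p = 0.750, n = 12; r = -0.27 without the 2 farthest). These are 4 of 24 tests, over 6 marker lists, 2 groups and both coefficients, and after Benjamini-Hochberg adjustment over the 12 relations the smallest was 0.306 for Pearson and 0.452 for Spearman, both for blood markers in low IMF.

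The other marker lists are given beside all genes, of which 73.4% were positive (49.8% with TMM scaling) and 0.051% were called by limma. Of 8 measured macrophage markers 7 were positive (6 with TMM scaling) and 0 were called. Their summed level was 12.5 to 43.2 FPKM in high and 6.36 to 41.0 FPKM in low IMF. Of 6 endothelial markers 5 were positive (4 with TMM scaling) and 0 were called, with 34.8 to 67.9 FPKM in high and 23.0 to 61.8 FPKM in low IMF. Of 4 measured nerve and Schwann cell markers 0 were positive (0 with TMM scaling) and 1 was called lower by limma, beside 0.00851% of all genes. They summed to 17.7 to 40.4 FPKM in high and 28.4 to 87.7 FPKM in low IMF. Blood markers, 2 measured, summed to 13.1 to 171 FPKM in high and 9.85 to 82.7 FPKM in low IMF. Of 11 muscle fibre markers 4 were positive (2 with TMM scaling) and 0 were called. None of the 4 osteoclast markers, cells rich in this pump, is in the table. The part of any of these cell types in the difference of ATP6V1F was not tested.

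**Figure D5:**
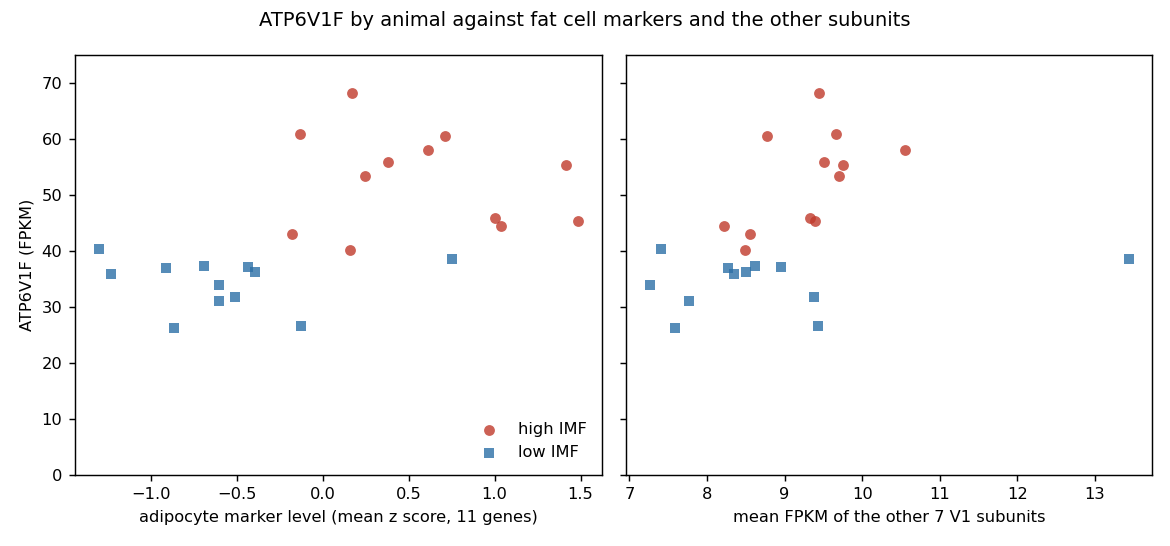
ATP6V1F in FPKM (y axis, from 0) by animal against the adipocyte marker level, a mean z score of 11 genes (left), and against the mean FPKM of the other 7 V1 subunits (right); red circles are high IMF and blue squares low IMF animals. In both panels 11 of 12 high IMF animals lie above every low IMF animal in ATP6V1F, and r with the adipocyte level is -0.16 within high and -0.049 within low IMF.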

How the data were processed

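The authors deposited 1 table of FPKM per assembled transcript and animal; the unit was inferred from the values. Per the submitters' processing notes HISAT2 2.0.5, StringTie 1.3.3 and Sscrofa11.1 were used, and the annotation release and strand setting were not stated. The deposited table also holds the authors' p-value, 3 kinds of q-value and a fold ratio, low over high IMF, per the file headers. FPKM was summed per symbol and chromosome. Reads shared between isoforms were divided upstream, so sums are firmer than isoforms.

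Depth was inferred from steps in FPKM times length: the best step brought 73.3% to 90.0% of 45 to 83 low values per library within 0.05 bases of whole, the next 41.2% to 58.9%. It is relative, and counting errors from it cover counting only. Values are base coverage, so no count test was used.

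Tests used limma 3.58.1 in R 4.3.3 (trend, robust, two-sided) on log2(FPKM + 1), which understates changes of low genes, and were tested on simulated data; the permutation tests of correlations used scipy 1.17.1 with 100000 resamples, two-sided. TMM factors were computed from FPKM by the published formula. Members, lists and tests were chosen with earlier results of these data known. Named genes were all members, up to 5 per list by smallest p and all genes within 500 kb. The 6 genes most like ATP6V1F, among those with a symbol and a mean of at least 1 FPKM, were also named. ATP6V0B, ATP6V0D1, DMXL1 and some cell type markers were named outside this rule. 1 gene of the lysosome list that this rule names is not reported here. All 8 members matched RefSeq symbols of Sscrofa11.1; no sequences were used here.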

Additional observations from a re-analysis of the deposited data

How the results depend on the processing

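The counts of called subunits, pump genes and lysosome genes were 0 in every alternative run, and ATP6V1F differed by 0.47 (upper-quartile scaling) to 0.68 (within set DLC1512, added after the data were seen); with 1 animal left out it was 0.56 to 0.63. At an unadjusted limma p under 0.05 the 7 other subunits had 0 to 2, the pump list 0 to 3 and the lysosome list 0 to 14; the highest counts of the pump and lysosome lists came without low IMF animal 10, where 15.0% of all genes had such a p. Over 29 other named genes 988 of 1054 alternative values kept their sign; the 66 others changed sign, 0 of them past the threshold. With TMM scaling they were ATP6V1B2 -0.014, ATP6V1C1 -0.037, ATP6V1G1 -0.069, ATP6V1H -0.0078, TSPAN33 -0.028, FLNC -0.080 and CALU -0.10. With upper-quartile scaling they were ATP6V1B2 -0.023, ATP6V1C1 -0.047, ATP6V1G1 -0.080, ATP6V1H -0.018, TSPAN33 -0.035, FLNC -0.091 and CALU -0.11. With a pseudocount of 0.1 it was CALU -4.2e-05. With array weights they were SMO 0.0055 and AC025594.2 0.012, with reference transcripts alone SMO 0.26 and TNPO3 -0.17. With 1 animal per 9 digits they were STRIP2 -0.018, MSTRG.6762 0.022, FLNC -0.10 and CALU -0.066. Within set DLC1601 they were ATP6V1A -0.044, ATP6V1C1 -0.17, ATP6V1D -0.018, ATP6V1H -0.057, STRIP2 -0.43, SMO 0.0021, TSPAN33 -0.013, FLNC -0.092 and CALU -0.36, and within set DLC1512 ATP6V1G1 -0.00041, NCOA7 -0.098 and MSTRG.6762 0.018. With 1 animal left out, ATP6V1C1 ran from -0.0029 to 0.15, CALU from -0.043 to 0.13, FLNC from -0.11 to 0.13, STRIP2 from -0.039 to 0.25, TSPAN33 from -0.0071 to 0.10, SMO from -0.065 to 0.011, AC025594.2 from -0.095 to 0.020 and MSTRG.6762 from -0.062 to 0.018. The cause of these changes was not tested. No paired analysis was possible because the labels give no replicate numbers; numbers in accession order pair nothing. Values below about 1 FPKM, such as AC025594.2, are limited by depth.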

Other observations

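ATP6V1A was listed at 0.0573 FPKM in low IMF animal 8, about 10.3 estimated reads, and at 0.848 FPKM in low IMF animal 3, against 1.48 to 4.30 FPKM in the other 22 animals. In the same animals ATP6V1B2, its partner in the ring, had 4.31 and 3.63 FPKM, inside the range of the other animals, which was 3.56 to 6.44 FPKM. In animal 8 ATP6V1F had 36.2 FPKM and ATP6V1G1 27.8 FPKM, the highest ATP6V1G1 value of the 24. The 1 listed ATP6V1A transcript reaches 27.8 kb past the RefSeq span of the gene, and reads on transcripts that are not in the table are not analysed here.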
